A study of Mus musculus with 2 samples.

Results

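Macrophages that carry transcripts of Lyve1 or Timd4, receptors typical of long-lived tissue macrophages, were described here among leukocytes of the pressure-loaded mouse heart. A cell was counted as such a macrophage when C1qa, C1qb and C1qc made up at least 0.3% of its UMIs (unique molecular identifiers, the counted molecules) and Lyve1 and Timd4 together had at least 2 UMIs. Cells with more than 1 UMI of Mki67, Top2a and Birc5, with more than 1 of Ly6c2, or with more than 1 of Spp1 and Gpnmb were left out. The rule found 1549 of 12407 kept cells, 433 in the LOY library and 1116 in the control library. They are called Lyve1/Timd4 macrophages below. The other 7709 cells that passed the C1q threshold, 3852 in the LOY and 3857 in the control library, are called the other C1q-high cells.

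The mice had received bone marrow labelled LOY (loss of the Y chromosome) or control marrow, and all underwent TAC (transverse aortic constriction), a surgical narrowing that raises the load on the left ventricle. By the labels, DAPI- CD45+ RFP+ leukocytes that derive from the transplanted marrow were sorted from the left ventricle. The files list an RFP feature, which had 0 UMIs in both libraries, so the donor origin rests on the sort. How the Y chromosome was lost, the strain, the age and the time after surgery are not given in the sources used here. Each group was 1 droplet library from 3 mice pooled after the sort, with about 8000 cells used. With a single pool per group no difference has a replicate check and none could be tested. The intervals are 95% intervals of counting error alone.

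Macrophages of the adult heart are commonly divided into a resident population, which carries Lyve1, Timd4 and Folr2 and is largely maintained locally, and populations replenished by blood monocytes, which carry Ccr2 and much MHC class II. By the sort, the cells described here derive from transplanted marrow, so resident markers on them describe transcripts and not origin. How long these cells had been in the heart was not measured. Timd4 encodes a receptor for phosphatidylserine on dying cells, Lyve1 a receptor for hyaluronan, and Folr2 a folate receptor. MHC class II molecules present peptides to CD4+ T cells, with Cd74 as the invariant chain that guides their assembly, and Ciita is the coactivator that switches the class II genes on.

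The LOY library was the shallower. Its Lyve1/Timd4 macrophages had a median of 4254 UMIs and 1690 genes per cell, against 7375.5 UMIs and 2455 genes in the control library. The other C1q-high cells had medians of 3166 UMIs in the LOY library and 5460 UMIs in the control library. Summed over cells, 2076563 UMIs stood behind the LOY and 9273679 behind the control Lyve1/Timd4 macrophages. Mitochondrial genes made up a median of 2.27% of UMIs in the LOY and 3.24% in the control Lyve1/Timd4 macrophages. The libraries shared 31 cell barcodes, carried by 0 LOY and 7 control Lyve1/Timd4 macrophages, and no such cell was paired across the libraries. Doublet scores marked 17 (3.93%) of the LOY and 21 (1.88%) of the control Lyve1/Timd4 macrophages, and these cells were kept.

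Lyve1 (mm10 chr7:110850607-110863239, minus strand) decided membership for nearly all cells. At least 1 Lyve1 UMI was present in 433 of 433 LOY and 1111 of 1116 control Lyve1/Timd4 macrophages. Timd4 (chr11:46810800-46844332, plus strand) was seen in 47 (10.9%) of the LOY and 130 (11.6%) of the control cells. After each cell was thinned to 2000 UMIs, the Timd4 shares were 5.80% in the LOY library and 4.50% in the control library, with overlapping intervals (3.75% to 8.50% and 3.36% to 5.90%). In B cells, which should lack both receptors, a Lyve1 UMI was found in 0.913% of 219 LOY cells (median 889 UMIs) and 0.258% of 776 control cells (median 2047.5 UMIs). A Timd4 UMI was found in 0 of the LOY B cells, which allows a share of up to 1.67% by the exact interval, and in 0.129% of the control B cells. No B cell of either library met the rule, although 12 LOY (5.48%) and 1 control B cell (0.129%) passed the C1q threshold. The B cells were shallower than the Lyve1/Timd4 macrophages, which makes 2 UMIs harder to reach.

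The 3 markers of the label that the rule did not use were abundant in the cells it chose. At 2000 UMIs per cell, Folr2 was seen in 88.2% of LOY and 89.7% of control Lyve1/Timd4 macrophages, against 28.6% and 29.8% of the other C1q-high cells of the LOY and control libraries. Cbr2, a carbonyl reductase, was seen in 93.5% of LOY and 79.8% of control Lyve1/Timd4 macrophages, against 30.9% and 26.1% of the other C1q-high cells. Fcna, a ficolin that binds microbial sugars, was seen in 44.9% of LOY and 25.5% of control Lyve1/Timd4 macrophages, against 6.43% and 3.47% of the other C1q-high cells. Over all UMIs, a Folr2 UMI was found in 0% of LOY and 1.03% of control B cells. With all UMIs counted, Fcna was seen in 64.4% of LOY and 53.7% of control Lyve1/Timd4 macrophages, so whether most of them show Fcna depends on the depth, whereas Folr2 and Cbr2 were seen in most at either depth and Timd4 in few.

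The plot of levels by UMI class shows F13a1, Folr2 and Fcna higher and H2-Aa lower with each step in the number of Lyve1 and Timd4 UMIs in both libraries, whereas Ccr2 did not follow every step. CPM here and below are counts per 1000000 UMIs, summed over the cells of a class. Folr2 stood at 991 CPM in the 95 LOY cells with 2 UMIs, just inside the rule, against 843 CPM in the 163 LOY cells with 1 UMI, just outside it. In the control library Folr2 stood at 1042 CPM in the 197 cells just inside and 973 CPM in the 319 cells just outside. H2-Aa, which encodes an MHC class II alpha chain, stood at 672 CPM just inside and 1008 CPM just outside in the LOY library, and at 7170 and 7577 CPM in the control library. Cells just outside the rule were therefore closer to the chosen cells than to those with no Lyve1 or Timd4 UMI, where Folr2 stood at 225 CPM in the LOY and 267 CPM in the control library. For the C1q threshold, 1 LOY and 0 control cells lay between 0.3% and 0.6%, and none that met the other cuts lay between 0.15% and 0.3%.

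**Figure D1:**
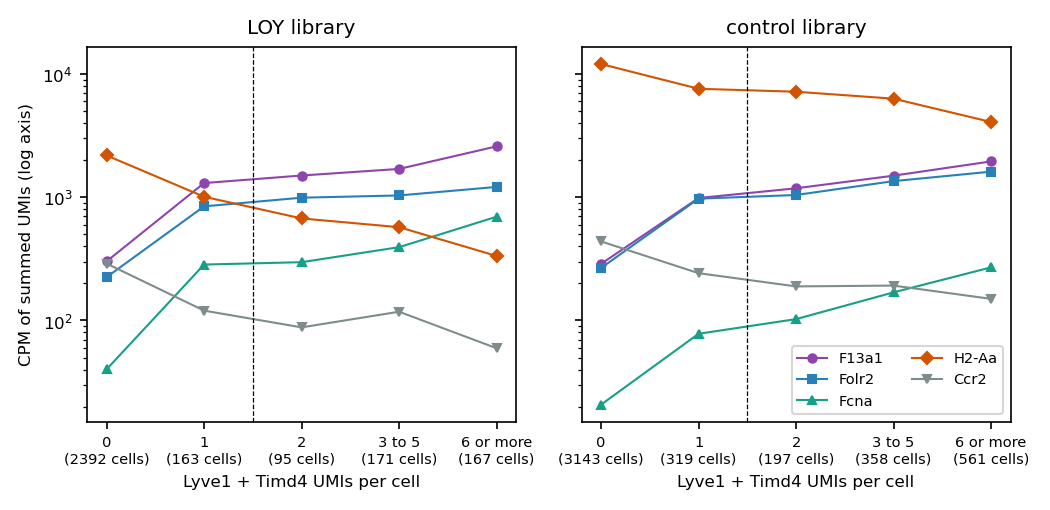
CPM (log axis) of 5 genes in C1q-high cells that met the other cuts, by the number of Lyve1 and Timd4 UMIs per cell, in the LOY library (left) and the control library (right), with the dashed line at the rule's threshold. F13a1, Folr2 and Fcna were higher and H2-Aa and Ccr2 lower in cells with 6 or more UMIs than in cells with none, and H2-Aa in the class with 6 or more was 334 CPM in the LOY and 4074 CPM in the control library.

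Against the other C1q-high cells of their own library, the Lyve1/Timd4 macrophages carried more of the listed resident macrophage genes and less MHC class II, Ccr2 and Il1b. All values of this contrast are a description, since the cells were chosen on their transcripts. Differences are given as log2((CPM + 10)/(CPM + 10)), which understates those of low genes, and a gene was measured at 10 CPM or more on either side. Past 1.5-fold in both libraries were 218 of 7329 measured genes on the higher side (2.97%) and 174 on the lower side (2.37%). Within the LOY library alone the shares were 5.5% higher and 4.51% lower, and within the control library 3.42% and 2.75%. The median over all measured genes was 0.06 in each library.

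Of 30 listed resident macrophage genes, 25 were measured, of which 23 were over 1.5-fold higher in both libraries and 0 lower. Vsig4, a complement receptor that clears opsonised particles, was at 236 CPM in the LOY Lyve1/Timd4 macrophages and 21.0 CPM in the other C1q-high cells, a log2 ratio of 2.99. In the control library Vsig4 was at 169 CPM and 17.5 CPM, a log2 ratio of 2.70. At 2000 UMIs per cell it was seen in 14.7% of LOY and 8.38% of control Lyve1/Timd4 macrophages, so its level rested on a minority of them. Mrc1, the mannose receptor, was at 1284 CPM against 586 CPM in the LOY library and at 1199 CPM against 626 CPM in the control library. Cd163, the haemoglobin scavenger receptor, was at 104 CPM against 25.6 CPM in the LOY library and 115 CPM against 32.0 CPM in the control library. Stab1, a scavenger receptor, had log2 ratios of 0.96 in the LOY and 1.17 in the control library.

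The C-type lectin genes Cd209f and Cd209g had log2 ratios of 2.86 and 1.99 in the LOY library and 2.59 and 2.12 in the control library. Both rested on a minority of cells. With all UMIs counted, Cd209f was seen in 15.0% of LOY and 16.3% of control Lyve1/Timd4 macrophages, and Cd209g in 12.7% and 13.7%. Ltc4s, leukotriene C4 synthase, was at 1076 CPM in the LOY Lyve1/Timd4 macrophages against 183 CPM in the other C1q-high cells, and at 542 CPM against 99.5 CPM in the control library. F13a1, the A chain of coagulation factor XIII, was at 2022 CPM against 401 CPM in the LOY library and 1692 CPM against 394 CPM in the control library. Ednrb, an endothelin receptor, had log2 ratios of 2.68 in the LOY and 2.31 in the control library. Fgfr1, a fibroblast growth factor receptor, had ratios of 2.67 and 2.03, and Rcn3, a calcium-binding protein of the endoplasmic reticulum, 2.58 and 1.73. Igf1, a growth factor, was at 310 CPM against 171 CPM in the LOY library and 417 CPM against 277 CPM in the control library.

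Chemokine genes divided between the populations. Of 20 listed, 19 were measured in both libraries, 6 of them over 1.5-fold higher and 7 over 1.5-fold lower in the Lyve1/Timd4 macrophages of both. Cxcl13 (chr5:95956951-95961068), which attracts B cells, had a log2 ratio of 3.23 in the LOY and 2.497 in the control library. Ccl8 had ratios of 1.64 and 1.78, Ccl24 of 1.99 and 1.59, and Ccl6 of 2.03 and 1.23. Cxcl9, Ccl5, Cxcl10 and Cxcl16 were lower. Cxcl10, an interferon-induced chemokine, was at 69.8 CPM against 257 CPM in the LOY library and at 73.9 CPM against 191 CPM in the control library. A Cxcl10 UMI was found in only 7.85% of LOY and 6.99% of control Lyve1/Timd4 macrophages.

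All 7 measured of 11 class II genes were over 1.5-fold lower in both libraries. H2-Eb1 had a log2 ratio of -1.89 in the LOY and -1.27 in the control library, and Cd74 of -1.74 and -1.03. Of 17 listed genes of recruited monocytes, 11 were measured, 6 of them lower in both libraries and 1 higher. Ccr2, the receptor for Ccl2, was at 87.6 CPM against 280 CPM in the LOY library and at 169 CPM against 415 CPM in the control library. Il1b, which encodes interleukin 1 beta, had ratios of -1.75 and -1.68, and Plac8 of -1.53 and -1.58. Rgs1, Ramp1, Gngt2, Fabp5 and Cd72 were also lower, between -1.84 and -1.37 over both libraries. The histone genes Hist1h1b and Hist1h1e and the microtubule regulator Stmn1 were among the lowest, Hist1h1b at -4.07 in the LOY and -3.11 in the control library. The rule removed cycling cells, cells with Ly6c2 and cells with Spp1 or Gpnmb from the Lyve1/Timd4 macrophages but not from the rest. A second comparison was with cells without Lyve1 or Timd4 UMIs that met the same cuts. There Hist1h1b stood at 0.14 in the LOY and 0.029 in the control library and Stmn1 at 0.20 in the LOY library. The other highest and lowest genes of this contrast, Plac8 and Fabp5 among them, kept their direction there. The part these cuts had in the size of their lower values was not tested.

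**Figure D2:**
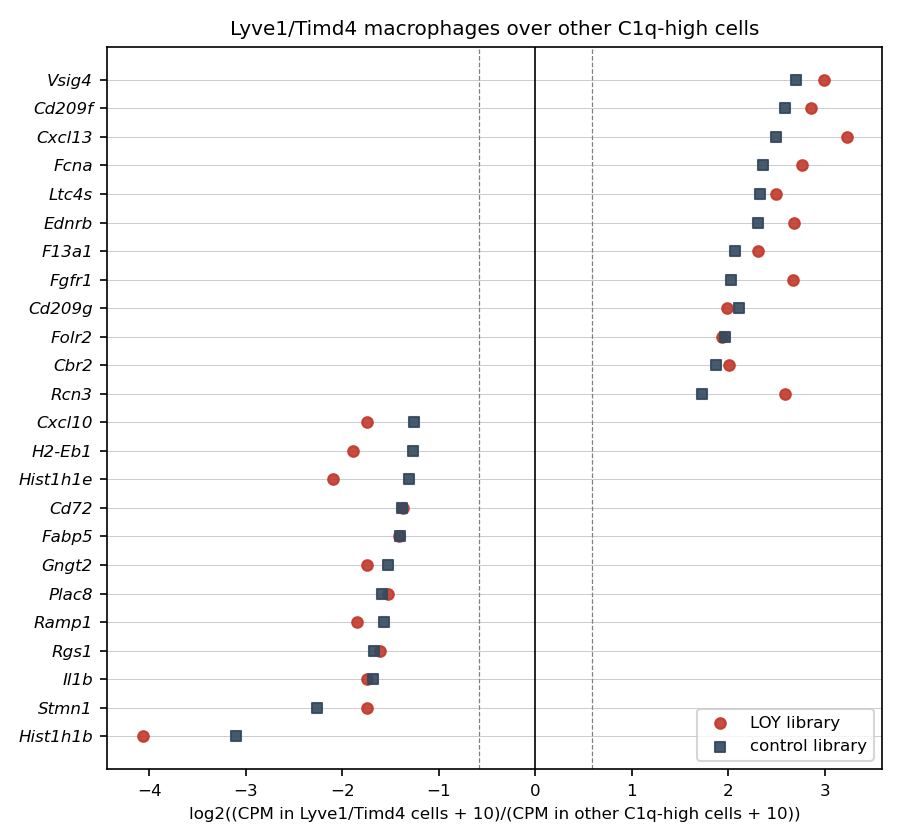
Log2 ratio of CPM (10 CPM added) in Lyve1/Timd4 macrophages over the other C1q-high cells, for the 12 highest and 12 lowest genes of the naming rule, in the LOY library (circles) and the control library (squares), with dashed lines at 1.5-fold. Both libraries stand on the same side for each gene, from Vsig4 at 2.99 and 2.70 to Hist1h1b at -4.07 and -3.11.

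Within the Lyve1/Timd4 macrophages, cells with a Timd4 UMI carried more Cxcl13 and Cd209f than cells without one. They also had less Ccr2 in summed UMIs, though the thinned shares of cells with Ccr2 had overlapping intervals. The LOY side rests on 47 cells and a Timd4 UMI is more easily seen in deeper cells, although the median depths differed little (4123 UMIs with and 4298 without Timd4 in the LOY library, and 7923.5 and 7269.5 in the control library). Past 1.5-fold in both libraries were 22 of 7276 measured genes (0.302%) higher and 8 (0.11%) lower. In the LOY library alone the shares were 8.78% higher and 12.9% lower, and in the control library 0.832% and 0.653%. Cxcl13 was at 563 CPM with Timd4 and 142 CPM without in the LOY library, and at 823 CPM and 185 CPM in the control library, log2 ratios of 1.91 and 2.10. At 2000 UMIs per cell a Cxcl13 UMI was seen in 17.0% of 47 cells with Timd4 and 3.81% of 367 without in the LOY library. The control shares were 14.0% of 129 and 3.98% of 981. Only 23 LOY and 76 control cells held any Cxcl13 UMI, and 3 of the LOY cells held 43.2% of the LOY library's Cxcl13 UMIs.

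Cd209f had log2 ratios of 1.82 in the LOY and 2.21 in the control library between cells with and without Timd4, and Cd209g of 0.89 and 1.91. The thinned share with Cd209f was 27.7% with and 6.81% without Timd4 in the LOY library, and 27.9% and 9.48% in the control library. For Cd209g the LOY shares were 14.9% (6.20% to 28.3%) and 7.36% (4.90% to 10.5%), with overlapping intervals. The control Cd209g shares were 23.3% (16.3% to 31.5%) and 5.40% (4.07% to 7.01%). St3gal5, which makes the ganglioside GM3, had ratios of 1.18 and 1.199. Slc40a1, the iron exporter ferroportin, had ratios of 0.85 and 0.94. The thinned shares of cells with St3gal5 or Slc40a1 had overlapping intervals with and without Timd4 in both libraries. Cd207, the lectin langerin, had ratios of 0.93 and 1.79, on 53 LOY UMIs from 8 cells and 437 control UMIs from 29 cells, and with at most 5% mitochondrial UMIs the LOY ratio was -1.72.

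On the lower side, Ccr2 was at 18.9 CPM (4 UMIs) with Timd4 and 95.4 CPM without in the LOY library, and at 97.4 CPM and 179 CPM in the control library. The thinned Ccr2 shares were 4.26% of 47 cells with and 12.8% of 367 without Timd4 in the LOY library. In the control library they were 12.4% (7.26% to 19.4%) and 15.5% (13.3% to 17.9%). Cx3cr1, the fractalkine receptor, had ratios of -1.35 in the LOY and -0.49 in the control library. Its thinned shares were 17.0% with and 25.3% without Timd4 in the LOY library, and 18.6% and 23.5% in the control library, with overlapping intervals. H2-Aa had ratios of -0.68 and -0.49 and Cd74 of -0.58 and -0.51. Tgs1 had ratios of -0.67 and -0.60. H2-Aa and Cd74 are named here because they were among the lowest. Of the 7 measured class II genes, 3 were over 1.5-fold lower with Timd4 in the LOY library, 0 in the control library and 0 in both. The per-cell share of UMIs from H2-Aa, H2-Ab1, H2-Eb1 and Cd74 had a median of 0.0375% with and 0.0416% without Timd4 in the LOY library, and of 1.06% and 2.30% in the control library.

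The Lyve1/Timd4 macrophages made up 7.996% (7.29% to 8.75%) of kept cells in the LOY library and 15.96% (15.1% to 16.8%) in the control library. Of C1q-high cells they were 10.1% (9.22% to 11.0%) and 22.4% (21.3% to 23.6%). The rule counts UMIs, so it finds more such cells in a deeper library. With the rule applied to cells thinned to 2000 UMIs, they were 7.11% (6.36% to 7.93%) of LOY and 8.97% (8.28% to 9.70%) of control cells, and 8.24% and 11.7% of C1q-high cells. Thinning left out 1155 LOY and 671 control cells that were shallower. Among C1q-high cells with at least 2 Lyve1 and Timd4 UMIs, the cycling cut left out 10.5% in the LOY and 5.12% in the control library, and the Spp1 and Gpnmb cut 6.32% and 1.34%.

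Transcripts of the Y chromosome were lower in the LOY Lyve1/Timd4 macrophages than in the control ones, and were not absent. Ddx3y, Eif2s3y, Kdm5d and Uty, genes of the male-specific region that are read in most tissues, together had 45 UMIs or 21.7 CPM (15.8 to 29.0) in the LOY cells. The control cells had 1213 UMIs or 131 CPM (124 to 138), so the LOY level was 16.6% (12.02% to 22.3%) of the control level. In the other C1q-high cells the sums were 13.002 CPM in the LOY and 109 CPM in the control library, 11.9% (10.2% to 13.8%). Ddx3y was at 13.002 CPM in the LOY and 55.6 CPM in the control Lyve1/Timd4 macrophages, and Eif2s3y at 4.82 and 42.5 CPM. Kdm5d, a histone demethylase, had 2 LOY and 152 control UMIs, and Uty, the Y-linked relative of Kdm6a, 6 and 151.

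At 2000 UMIs per cell, a Y-linked UMI was seen in 23 of 414 LOY Lyve1/Timd4 macrophages (5.56%, 3.55% to 8.22%) and 259 of 1110 control ones (23.3%, 20.9% to 25.9%). Without thinning the shares were 8.55% and 59.2%. In the other C1q-high cells the thinned shares were 2.15% (1.68% to 2.71%) in the LOY and 18.0% (16.8% to 19.3%) in the control library. Within the LOY library, the Y-linked level of the Lyve1/Timd4 macrophages was 1.67 times (1.17 to 2.32) that of the other C1q-high cells, and within the control library it was 1.198 times (1.12 to 1.28). Whether these 2 ratios differ was not tested, and the intervals overlap. If every control cell carries a Y chromosome, and with no allowance for free RNA, the thinned shares give an estimate of cells without a Y chromosome of 76.2% of the LOY Lyve1/Timd4 macrophages and 88.1% of the other C1q-high cells. This estimate has no interval and depends on the measure. By thinned shares the LOY value was 23.8% of the control value in the Lyve1/Timd4 macrophages and 11.9% in the other C1q-high cells. By summed UMIs these were 16.6% and 11.9%. Xist had 0 LOY and 1 control UMI in the Lyve1/Timd4 macrophages. The X-linked relatives Ddx3x, Eif2s3x, Kdm5c and Kdm6a each stayed within 1.5-fold between the libraries with 10 CPM added, with a median log2 ratio of -0.15.

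**Figure D3:**
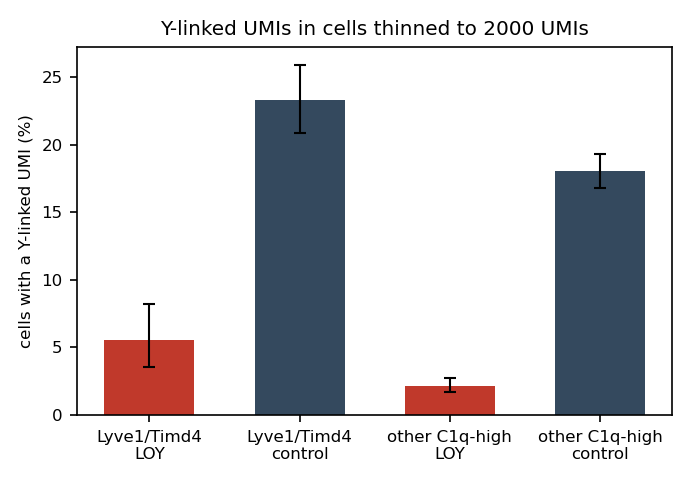
Percent of cells with a UMI of Ddx3y, Eif2s3y, Kdm5d or Uty after each cell was thinned to 2000 UMIs, with exact Clopper-Pearson intervals (95%, counting error only), in Lyve1/Timd4 macrophages and other C1q-high cells of the LOY (red) and control (dark) libraries. The LOY bars stand at 5.56% and 2.15%, against 23.3% and 18.0% in the control library.

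Between the libraries, the Lyve1/Timd4 macrophages of the LOY marrow carried fewer class II transcripts than the control ones, fewer immediate early transcripts, and more cathepsin D, while resident genes went both ways. Past 1.5-fold in the LOY cells were 474 of 7889 measured genes on the higher side (6.01%) and 709 on the lower side (8.99%), with a median log2 ratio of -0.02 over all. In the other C1q-high cells, which come from the same libraries, 520 of 7828 (6.64%) were higher and 621 (7.93%) lower. Values of the other C1q-high cells are given for some lists and genes below. A value given for the Lyve1/Timd4 macrophages alone is not thereby particular to them. In the other C1q-high cells, 8 of 19 measured inflammatory genes were over 1.5-fold lower and 0 higher. Of 30 transcription factors there, 9 were lower and 1 higher. Of 28 lysosome genes 8 were higher and 0 lower, and of 15 iron and haem genes 5 were lower and 0 higher. A difference between the populations was not tested.

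H2-Aa, H2-Eb1 and H2-Ab1 had the lowest ratios of the naming rule. H2-Aa (chr17:34282744-34287823, minus strand) was at 494 CPM in the LOY and 5233 CPM in the control Lyve1/Timd4 macrophages, a LOY level 0.0943 times (0.0886 to 0.100) the control level. In the other C1q-high cells H2-Aa was at 1764 CPM in the LOY and 10672 CPM in the control library. H2-Eb1 was at 474 and 4666 CPM in the LOY and control Lyve1/Timd4 macrophages and H2-Ab1 at 528 and 4378 CPM. H2-Aa and H2-Ab1 encode both chains of the I-A molecule and H2-Eb1 the beta chain of I-E. The log2 ratios of H2-Aa, H2-Eb1 and H2-Ab1 were -3.38, -3.27 and -3.03 in the Lyve1/Timd4 macrophages, against -2.59, -2.65 and -2.20 in the other C1q-high cells.

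The genes that load and switch on class II followed at smaller ratios. Cd74 was at 2271 CPM in the LOY and 11675 CPM in the control cells, a log2 ratio of -2.36, against -1.65 in the other C1q-high cells. H2-DMa and H2-DMb1, which load peptides, had ratios of -1.34 and -1.61, against -1.38 and -1.42. Ciita had 34 LOY and 591 control UMIs, a ratio of -1.48 in both populations. All 7 measured genes of 11 listed were past 1.5-fold lower, with a median of -2.36. The remaining 4 (H2-Oa, H2-Ob, H2-DMb2 and H2-Eb2) were below 10 CPM in both libraries.

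The difference also showed in the share of cells with a class II UMI. At 2000 UMIs per cell, H2-Aa was seen in 28.7% (24.4% to 33.4%) of the LOY and 77.4% (74.8% to 79.8%) of the control Lyve1/Timd4 macrophages. In the other C1q-high cells it was seen in 45.9% of LOY and 94.6% of control cells. T cells, which in mice should lack class II, held an H2-Aa UMI in 14.7% of 68 LOY cells (median 1869.5 UMIs) and 21.4% of 234 control cells (median 3738.5 UMIs). Summed over cells, H2-Aa stood at 991 CPM in the LOY T cells, from 171 UMIs in 10 cells, which is above the 494 CPM of the LOY Lyve1/Timd4 macrophages. In the control T cells it stood at 521 CPM, below the 5233 CPM of the control Lyve1/Timd4 macrophages. Cd74 stood at 4646 CPM in the LOY T cells and 1135 CPM in the control T cells. The part of free RNA or of doublets in these levels was not tested. H2-Aa, H2-Ab1, H2-Eb1 and Cd74 together took a median of 0.0411% of a LOY cell's UMIs, with 10% of cells above 1.49%, against a median of 2.13% in control cells, with 10% above 5.96%. Of the LOY cells, 5.54% lay above the control median. The spread in the control cells was wide, from 0.0363% at the 10th percentile.

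**Figure D4:**
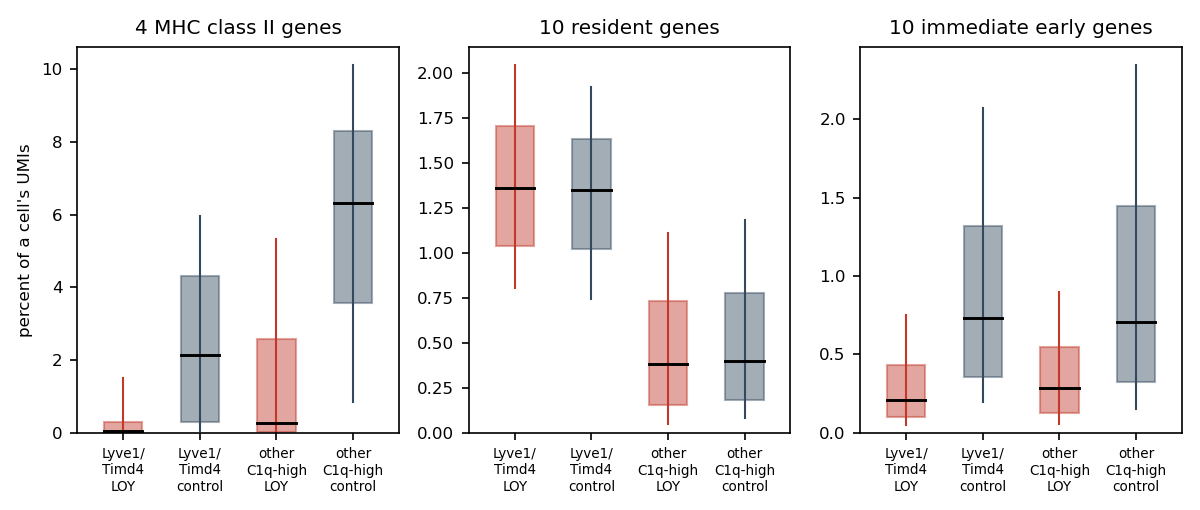
Percent of each cell's UMIs from 4 class II genes (H2-Aa, H2-Ab1, H2-Eb1, Cd74), 10 resident genes and 10 immediate early genes in Lyve1/Timd4 macrophages and other C1q-high cells of the LOY and control libraries. Black lines are medians, boxes the middle 50% of cells and lines the 10th to 90th percentile, with class II medians of 0.0411% in LOY and 2.13% in control Lyve1/Timd4 macrophages and resident medians of 1.36% and 1.35%.

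The promoters of class II genes are known for a shared arrangement that ends in a Y box, a reversed CCAAT element bound by NF-Y, near the start of transcription. Because these genes were low together, the 250 bases before the start of 3 of them are shown, from RefSeq annotation on GRCm38.p6 (the build also named mm10), 5′ to 3′ on the gene's strand, with CTGATTGG, ATTGG or its reverse complement CCAAT in capitals. H2-Aa lies at chr17:34287824-34288073 on the minus strand, H2-Eb1 at chr17:34305617-34305866 on the plus strand and H2-DMb1 at chr17:34152941-34153190 on the plus strand.
H2-Aa: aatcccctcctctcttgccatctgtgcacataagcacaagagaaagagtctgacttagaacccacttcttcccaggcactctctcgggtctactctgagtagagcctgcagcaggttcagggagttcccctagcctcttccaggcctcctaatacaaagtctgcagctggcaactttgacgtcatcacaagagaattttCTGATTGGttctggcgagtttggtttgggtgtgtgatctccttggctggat
H2-Eb1: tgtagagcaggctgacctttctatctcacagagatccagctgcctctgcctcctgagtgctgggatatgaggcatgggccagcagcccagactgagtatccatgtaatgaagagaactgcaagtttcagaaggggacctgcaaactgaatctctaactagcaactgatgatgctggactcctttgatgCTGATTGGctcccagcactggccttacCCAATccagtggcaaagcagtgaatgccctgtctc
H2-DMb1: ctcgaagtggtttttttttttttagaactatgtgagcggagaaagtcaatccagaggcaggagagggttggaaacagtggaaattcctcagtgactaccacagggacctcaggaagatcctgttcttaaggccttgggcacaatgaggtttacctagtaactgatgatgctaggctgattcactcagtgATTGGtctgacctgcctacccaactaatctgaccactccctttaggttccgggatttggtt
Of 10 listed class II genes looked up, 8 had a promoter in the table. Searched on both strands, CTGATTGG stood in 4 of the 8 (H2-Oa, H2-Aa, H2-Eb1 and H2-Eb2) and ATTGG, which it contains, in all 8, for H2-DMa at 1 of its 2 starts. Counted in the same way by gene, 4.43% of 27025 mouse genes had a promoter of this length with CTGATTGG and 37.5% one with ATTGG, and of 32851 promoters 3.83% and 33.8% held them. In H2-Aa, H2-Eb1 and H2-DMb1 the first base of the ATTGG shown lay 48, 59 and 61 bases before the start. H2-Oa and H2-Eb2 hold the same letters and were too low to measure here. These matches describe the sequence and show no binding.

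MHC class I genes were lower in part, by less. Of 15 listed and measured, 10 were over 1.5-fold lower and 0 higher, with a median log2 ratio of -0.89, against -0.85 in the other C1q-high cells. H2-D1 was at 1442 CPM in the LOY and 3237 CPM in the control Lyve1/Timd4 macrophages, and B2m, the shared light chain, at 1544 and 2768 CPM. H2-M3, a non-classical class I gene, had 45 LOY and 1148 control UMIs, a ratio of -2.08. Genes of the H2 family share sequence, and how reads that fit several of them were counted is not given in the sources used here.

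Immediate early and stress genes, which also respond to tissue digestion, were lower in nearly all cases. Of 27 measured, 23 were over 1.5-fold lower in the LOY cells and 0 higher, with a median of -1.41, against -1.11 in the other C1q-high cells. Btg2, an antiproliferative gene, was at 105 CPM in the LOY and 911 CPM in the control Lyve1/Timd4 macrophages. Zfp36, which destabilises cytokine mRNAs, was at 126 and 753 CPM, Dusp1 at 288 and 1237 CPM, and Fos at 656 and 1766 CPM. Hsp90ab1, at 2305 and 1932 CPM, and Hspa8, at 1871 and 1656 CPM, were among the 4 that stayed within 1.5-fold. The 10 of these genes in the plot of per-cell percentages together took a median of 0.208% of a LOY cell's UMIs and 0.735% of a control cell's. The library and the marrow cannot be told apart.

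Among 30 measured transcription factors of macrophages, 9 were over 1.5-fold lower and 1 higher. Cebpb, a regulator of myeloid genes, was at 112 CPM in the LOY and 736 CPM in the control cells. Id3 was at 31.8 and 160.02 CPM, Nr4a1 at 16.9 and 93.6 CPM, and Klf2 at 437 and 1505 CPM. Klf2 was also higher in the Lyve1/Timd4 macrophages than in the other C1q-high cells, with log2 ratios of 1.46 in the LOY and 0.69 in the control library. Spi1 and Rbpj stayed within 0.1 of equal between the libraries on the log2 scale, at 0.07 and -0.02. Irf7, which drives interferon genes, was the 1 higher factor, at 353 and 193 CPM.

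**Figure D5:**
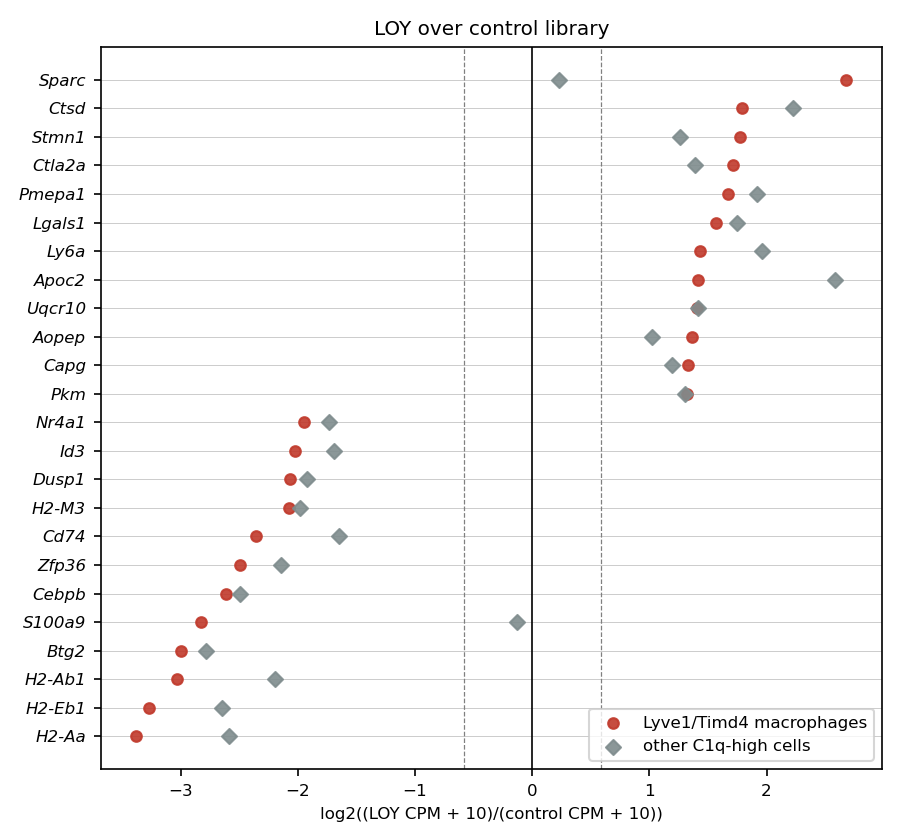
Log2 ratio of LOY over control CPM (10 CPM added) for the 12 highest and 12 lowest genes of the naming rule, in Lyve1/Timd4 macrophages (red circles) and in the other C1q-high cells (grey diamonds), with dashed lines at 1.5-fold. Sparc (2.68 against 0.23) and S100a9 (-2.83 against -0.13) stand apart in the Lyve1/Timd4 macrophages, and both rest on a few cells.

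Sparc and S100a9 were carried by a few cells. Sparc, a matrix protein of fibroblasts and other stromal cells, had 160 UMIs (77.1 CPM) in the LOY and 33 UMIs (3.56 CPM) in the control Lyve1/Timd4 macrophages, and 150 of the LOY UMIs lay in 1 cell. That cell had 11915 UMIs, 0.378% of them from the C1q genes, with 43 Col3a1, 15 Col1a1 and 0 Folr2 UMIs, although the sort was for CD45+ cells. It held 194 of the 384 UMIs of 8 fibroblast genes in the LOY cells. Without it Sparc was at 4.82 CPM. S100a9, a neutrophil protein, had 2 LOY and 630 control UMIs, 425 of the control UMIs in 3 cells. A further cut left out cells that held at least 10 UMIs of any 1 other cell type (2 LOY and 105 control cells). The log2 ratios were then 0.15 for Sparc and -0.19 for S100a9. S100a9 is itself a neutrophil marker of that cut, which removes the cells rich in it. Its ratio there was thus bound to move towards equal and is no check. The cut was chosen after seeing the data.

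The genes that mark resident macrophages were not shifted one way. Of 25 measured, 5 were over 1.5-fold higher and 6 lower in the LOY cells, with a median of -0.05. The 10 resident genes drawn in the plot of per-cell percentages took a median of 1.36% of a LOY cell's UMIs and 1.35% of a control cell's, and 51.0% of LOY cells lay above the control median. Fcna was at 498 CPM in the LOY and 213 CPM in the control cells, 2.34 times (2.17 to 2.52) as high. Stab1 was at 903 and 420 CPM, Ltc4s at 1076 and 542 CPM, and Cbr2 at 1850 and 1002 CPM. On the other side, Clec10a and Mgl2, lectins that bind galactose sugars, were at 82.3 and 253 CPM in the LOY cells, against 230.2 and 519 CPM in the control cells. Cd209f was at 133 and 248 CPM. Folr2, at 1098 and 1442 CPM, Mrc1, at 1284 and 1199 CPM, and Cd163, at 104 and 115 CPM, stayed within 1.5-fold.

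Lysosome and lipid genes were more often higher in the LOY cells. Of 28 measured lysosome genes, 7 were higher and 3 lower, with a median of 0.25. Ctsd, cathepsin D, was at 2807 CPM in the LOY and 805 CPM in the control Lyve1/Timd4 macrophages, 3.49 times (3.37 to 3.61) as high, and at 2678 and 563 CPM in the other C1q-high cells. Grn, progranulin, was at 1876 and 1056 CPM, whereas Ctsc, cathepsin C, was at 927 and 1461 CPM. Of 18 measured lipid genes, 9 were higher and 2 lower, with a median of 0.48, against 0.73 in the other C1q-high cells. Trem2, a lipid receptor, was at 1120 and 563 CPM, and Plin2, which coats lipid droplets, at 321 and 153 CPM. Apoc2, the cofactor of lipoprotein lipase, was at 63.1 and 17.5 CPM, whereas Lpl, that lipase, was at 108 and 289 CPM. Apoe differed little between the libraries in the Lyve1/Timd4 macrophages, at 29089 and 26923 CPM, and stood at 37693 and 20816 CPM in the other C1q-high cells. Pkm, a glycolytic enzyme, was at 609 and 238 CPM, and Uqcr10, a subunit of respiratory complex III, at 360.2 and 130 CPM.

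Interferon-induced genes were more often higher than lower in the LOY cells, with most of them within 1.5-fold. Of 26 measured, 9 were over 1.5-fold higher, 2 lower and 15 within it, with a median of 0.42, against 0.46 in the other C1q-high cells. Ifi27l2a was at 5946 CPM in the LOY and 2717 CPM in the control Lyve1/Timd4 macrophages, Ly6e at 3245 and 1757 CPM, Ifitm3 at 5494 and 3159 CPM, and Isg15 at 469 and 275 CPM. Gbp2 was at 34.7 and 60.8 CPM and Oas1a at 14.0 and 27.5 CPM. Cxcl10 was at 69.8 and 73.9 CPM, with 50.3% of its LOY and 34.9% of its control UMIs in 3 cells of each library. Ly6a, an interferon-induced surface protein, was at 732 and 265 CPM.

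Inflammatory genes were lower where they differed, with 8 of 18 measured past 1.5-fold lower and 0 higher and a median of -0.55. Il1b was at 51.5 CPM in the LOY and 200.2 CPM in the control cells, Tnfaip3 at 17.8 and 72.4 CPM, and Nfkbia at 253 and 524 CPM. Of 19 measured chemokine genes, 3 were higher and 6 lower. Ccl6 was at 3426 and 2004 CPM and Ccl9 at 1374 and 835 CPM, whereas their ratios in the other C1q-high cells were -0.03 and 0.15. Ccl2 was at 108 and 292 CPM and Cxcl2 at 219 and 495 CPM. Cxcl13 was at 185 and 265 CPM.

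Of 17 measured growth factor and TGF-β genes, 2 were over 1.5-fold higher and 1 lower. Tgfb1 was at 259 CPM in the LOY and 197 CPM in the control cells, 1.31 times (1.19 to 1.45) as high. Pmepa1, a target and inhibitor of TGF-β signalling, was at 215 and 60.6 CPM, a log2 ratio of 1.67, against 1.92 in the other C1q-high cells. Igf1 was at 310 and 417 CPM and Pdgfc at 62.1 and 52.4 CPM. Of 17 measured genes of matrix remodelling, 8 were higher and 4 lower, against 7 higher and 2 lower of 16 in the other C1q-high cells. Sparc counts among the 8 through 1 cell. Without that cell it stood at 4.82 CPM in the LOY Lyve1/Timd4 macrophages, below the 10 CPM floor. Lgals1, galectin 1, was at 2994 and 1002 CPM and Ecm1 at 281 and 147 CPM, whereas Mmp9, a gelatinase, was at 14.9 and 41.1 CPM.

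Efferocytosis genes mostly stayed within 1.5-fold, with 2 higher and 1 lower of 19 measured. Mertk and Axl, receptors that bridge to dying cells, were at 82.3 and 89.6 CPM in the LOY and 56.0 and 109 CPM in the control cells. Gas6, their ligand, was at 441 and 552 CPM. Of 16 measured iron and haem genes, 6 were lower and 0 higher, with a median of -0.42. Hpgd, the enzyme that inactivates prostaglandins and stands on that list, was at 135 and 304 CPM, Slc40a1 at 47.2 and 80.4 CPM and Ftl1, ferritin light chain, at 6531 and 10529 CPM. Ftl1 has many near-identical copies in the genome, so its count is uncertain. Hmox1, haem oxygenase, was at 289 and 302 CPM. Of 11 measured complement genes outside the rule, C5ar1 alone was past 1.5-fold, at 146 and 270 CPM.

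Of 16 measured replication genes, 8 were over 1.5-fold higher in the LOY cells, 8 within 1.5-fold and 0 lower, after cycling cells had been left out by Mki67, Top2a and Birc5. The list had a median log2 ratio of 0.62, against 0.44 in the other C1q-high cells. Stmn1 was at 136 CPM in the LOY and 32.6 CPM in the control cells, Lig1, a DNA ligase, at 66.9 and 24.5 CPM, and Mcm3, a part of the replicative helicase, at 76.6 and 33.8 CPM. The cut of at most 1 UMI is milder in a shallower library, and what part this had was not tested.

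Markers of other cell types moved with the library. Summed over its list, B cell markers stood at 211 CPM in the LOY and 499 CPM in the control Lyve1/Timd4 macrophages, mostly Ighm. Ighm stood at 193 CPM in these LOY and 449 CPM in these control cells, against 9453 and 2331 CPM in the B cells. Cd79a stood at 3.85 and 11.0 CPM, against 4175 and 3194 CPM in the B cells. Whether the Ighm of these macrophages came from B cells was not tested. Neutrophil markers stood at 20.2 and 148 CPM, with 4 of 7 at 0 in the LOY cells, and T and NK cell markers at 0 and 19.3 CPM, with all 9 at 0 in the LOY cells. Endothelial markers stood at 8.19 and 18.5 CPM with 6 and 3 of 13 genes at 0, cardiomyocyte markers at 109 and 134 CPM, and dendritic cell markers at 9.63 and 24.2 CPM. Fibroblast markers stood at 185 and 116 CPM, and the LOY sum was 92.03 CPM, below the control sum, without the 1 cell that held most Sparc UMIs. Monocyte markers stood at 46.2 and 34.2 CPM, and platelet and erythroid markers at 2.41 and 5.82 CPM. At least 3 UMIs of the other types' markers were present in 33.9% of LOY and 81.7% of control Lyve1/Timd4 macrophages. All UMIs were counted, so the cut is reached more easily in the deeper control library. Ighm entered this count and the cuts that left out cells by other types' UMIs. Dendritic cell and monocyte markers did not enter this count or the cuts that left out cells by other types' UMIs. The part of other types' transcripts in the differences between the libraries was not tested beyond leaving out cells that held them.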

How the data were processed

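One LOY and one control droplet library, each from a pool of mice, were analysed. What the authors deposited are unnormalized counts of UMIs for each gene in each barcode, with Cell Ranger 5.0.0 and the build mm10 named per the submitters' processing notes. Annotation release and cell calling are not given in the sources used here. Gene positions come from GENCODE M21 (same build). Barcodes needed 500 UMIs, 200 genes and no more than 10% mitochondrial UMIs (Python 3.11.15, numpy 2.4.6, scipy 1.17.1, pandas 2.3.3).

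Counts were summed over the cells of a class and library and scaled to CPM, and log2 ratios had 10 CPM added on both sides. Folds printed with an interval are ratios of CPM without that addition, with exact conditional intervals. Sums have exact Poisson and shares exact Clopper-Pearson intervals. PCR copies are collapsed by UMI, and intervals cover counting error only. Cells were thinned without replacement to 2000 UMIs for shares. Doublets were scored with scrublet through scanpy 1.11.5 and kept. Its automatic threshold marked 0 LOY cells, so there the highest scores were marked (235, 4.34%). In the control library it marked 88 (1.26%).

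The members and gene lists were chosen with earlier results of these data known. Named genes are the 12 highest and 12 lowest ratios of each contrast (6 for Timd4) with at least 50 CPM in the higher class and 50 UMIs, leaving out genes of the rule, unnamed gene models, genes of antigen receptors and haemoglobin, and mitochondrial or ribosomal-protein genes. Added to them are the label's markers, Y-linked genes and X-linked partners, Xist, Tgfb1 and the extreme members of each list. Other genes of the lists, and B and T cell genes, were named after their values were seen. Of 444 listed symbols 2 were not used, Mx2 and Ccl21a, whose symbols did not match 1 feature. The scripts were tested on simulated data.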

Additional observations from a re-analysis of the deposited data

How the results depend on the processing

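Among the highest and lowest genes of the naming rule, direction was unchanged for all but Cd207, Hist1h1b and Stmn1 under the alternatives run. Of 1320 values, 968 moved by less than counting error, 348 moved beyond it and 4 reversed. With at most 5% mitochondrial UMIs, Cd207 between cells with and without Timd4 was -1.72 in the LOY library. Against C1q-high cells with no Lyve1 or Timd4 UMI that met the other cuts, Hist1h1b was 0.14 in the LOY and 0.029 in the control library and Stmn1 0.20 in the LOY library, and the construction of this comparator, which has the cycling cut, differs from that of the main one. With 1 CPM added in place of 10, 858 genes were higher and 1180 lower in LOY Lyve1/Timd4 macrophages, 339 were higher than in other C1q-high cells, and 64 were higher and 67 lower with Timd4. With 50 CPM added these were 151 and 201, 89 higher and 51 lower, and 5 and 1. The immediate early median was -1.48 with 1 CPM and -1.10 with 50 CPM. With no floor on CPM the class II median was -1.48 and the immediate early median -1.22. With scored doublets left out they were -2.60 and -1.46. Of kept and of C1q-high cells, at least 3 Lyve1 and Timd4 UMIs gave 6.24% and 7.89% in the LOY and 13.1% and 18.5% in the control library. The rule on thinned cells gave 7.11% and 8.24% in the LOY and 8.97% and 11.7% in the control library, a class II median of -2.23, and 80 genes higher and 146 lower with Timd4. At most 5% mitochondrial UMIs gave a control share of kept cells of 17.3% and 18 genes lower with Timd4. CPM without mitochondrial and ribosomal-protein genes gave 17 lower with Timd4 and a class II median of -2.00, and the mean of per-cell CPM 14 and -2.25. Leaving out cells with at least 3 UMIs of other types, which removes most control cells, gave control shares of 13.2% of kept and 15.1% of C1q-high cells, 745 genes higher in LOY cells, 128 higher and 206 lower with Timd4, and medians of -0.27 for resident, -2.49 for class II and -1.51 for immediate early genes. Splitting thinned cells by Timd4 gave 50 higher and 108 lower. Leaving out cells with at least 10 UMIs of any 1 other type, an alternative chosen after seeing the data, gave a control share of kept cells of 19.6%. Causes were not tested. The counts with Timd4 rest on few LOY cells and moved most. No paired analysis was possible because each group is 1 library without replicate numbers. Depth limits the LOY side, where 4 UMIs of Ccr2 or 34 of Ciita carry a value.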
